A study of Mus musculus with 44 samples.

Results

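The genes C1qb and C1qc, which encode chains of the complement protein C1q, and C3ar1, which encodes the receptor for the complement fragment C3a, were examined in single cells sorted as osteomacs, the macrophages of bone surfaces. They were chosen by name and are 3 of the 3613 genes in the deposited table. C1qa, the gene of the remaining C1q chain, was not analysed here. The table holds 44 mouse cells. Of these, 20 came from cultures of C57BL/6J neonatal calvarial cells (100000 cells, 16 h) to which 50000 megakaryocytes had been added, all on plate 7, and are called with-MK cells. The other 24, all on plate 3, are labelled as cultured in the same way without megakaryocytes and are called without-MK cells. Both sets were sorted as CD45+F4/80+CD41- and captured on a Fluidigm C1 chip, which isolates single cells for full-length cDNA synthesis. For the 24 without-MK cells the sample title mentions megakaryocytes as well, which goes against the treatment label. Neither cultures nor animals are identified. Each group is therefore a single sample whose cells are no replicates of it, and the groups were not tested against each other. Plate, capture and treatment cannot be told apart.

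C1q starts the classical pathway of complement. It is assembled from A, B and C chains, binds antibody complexes and the surface of dying cells, and activates the proteases C1r and C1s. Unlike most complement proteins, which are made mainly in the liver, C1q is made largely by macrophages and dendritic cells. Cleavage of C3 further down the cascade releases C3a, a small peptide that acts through the G protein-coupled receptor C3AR1 on myeloid cells.

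Levels are given as CPM, the reads of a gene per 1000000 library reads of the cell, with both numbers worked out from the deposited signal. With-MK cells had 69181 to 1212604 library reads (median 834834), and without-MK cells 270537 to 714465 (median 527930). With-MK cells 11 and 16 were far shallower than the rest, with 69181 and 71585 reads. The genes of the sort markers were read in with-MK cells and were nearly absent from without-MK cells. Over all with-MK cells Ptprc, the CD45 gene, had 8206 reads, against 1 read over all without-MK cells, and Adgre1, the F4/80 gene, had 7780 reads and 1 read. Ptprc was read in all 20 with-MK cells but Adgre1 in only 17. Cells 16 and 19 had no Adgre1 read, although cell 19 had 1103554 library reads. The 18 listed genes of a 20-gene macrophage list summed to 4386 to 60462 CPM per with-MK cell, against 1.92 to 906 CPM per without-MK cell. The 7 listed genes of an 18-gene osteoblast and fibroblast list summed to 3.88 to 196 CPM per with-MK cell, against 4276 to 98080 CPM per without-MK cell. The groups compared below thus differ in their whole cell type profile, macrophage in with-MK cells and stromal in without-MK cells. How much this contributes to the results was not tested.

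C1qb lies on chromosome 4 at 136880129 to 136886187 and C1qc at 136889804 to 136893065, both protein-coding genes on the minus strand of GRCm38 (the mm10 build) in GENCODE M21. They are neighbours, with 3616 bases between them, and C1qa follows after another 2851 bases. The 3 C1q genes span 18675 bases. C3ar1 is a protein-coding gene on the minus strand of chromosome 6, at 122847138 to 122856161. No annotated gene overlaps any of the 3 members. The 250 bases before the RefSeq start site of each member (GRCm38.p6, minus strand) are shown because C1qb and C1qc lie side by side and are read here cell by cell against each other. The windows are chr4:136886201-136886450 for C1qb, chr4:136892915-136893164 for C1qc and chr6:122856158-122856407 for C3ar1, each written 5′ to 3′ along the gene. In GENCODE M21 the C1qc gene starts 151 bases further upstream than in RefSeq, inside that window. Capitals mark matches, on either strand, to the motifs searched.
C1qb: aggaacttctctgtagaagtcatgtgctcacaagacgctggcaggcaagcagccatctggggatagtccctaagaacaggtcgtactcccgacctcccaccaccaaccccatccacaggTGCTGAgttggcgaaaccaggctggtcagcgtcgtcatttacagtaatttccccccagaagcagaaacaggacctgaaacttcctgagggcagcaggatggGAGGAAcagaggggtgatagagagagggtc
C1qc: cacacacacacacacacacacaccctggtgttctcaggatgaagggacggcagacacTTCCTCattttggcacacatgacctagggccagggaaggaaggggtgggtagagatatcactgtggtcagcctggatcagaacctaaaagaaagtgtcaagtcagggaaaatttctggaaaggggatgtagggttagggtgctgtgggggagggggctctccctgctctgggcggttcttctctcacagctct
C3ar1: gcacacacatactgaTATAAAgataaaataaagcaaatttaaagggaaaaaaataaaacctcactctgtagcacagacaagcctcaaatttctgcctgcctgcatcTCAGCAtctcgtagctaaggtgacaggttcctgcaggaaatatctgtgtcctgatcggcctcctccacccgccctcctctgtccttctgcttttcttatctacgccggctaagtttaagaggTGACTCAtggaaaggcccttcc

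The core motif of PU.1, GAGGAA, was found once in the C1qb window, 30 to 25 bases before the start, and once in the C1qc window on the opposite strand, 193 to 188 bases before it. PU.1 is an ETS-family transcription factor of macrophages. The letters TGCTGA, part of the site of MAF factors, occurred once in the C1qb window and once, on the opposite strand, in the C3ar1 window. The C3ar1 window also held an AP-1 motif, TGANTCA, at 22 to 16 bases before the start and the letters TATAAA far upstream. The interferon response motif (GAAA, any pair of bases, GAAA), TTGCGCAA (C/EBP) and CACGTG (E-box) were in none of the 3 windows. Such matches are common, and no 2 of the motifs overlapped here. Of 32536 RefSeq windows of this length, 23.4% held the PU.1 core, 16.1% the MAF letters, 6.73% the AP-1 motif, 12.3% TATAAA, 6.04% the E-box, 2.98% the interferon motif and 0.166% the C/EBP motif.

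Most with-MK cells, but no without-MK cell, had reads of C1qb, the B chain gene. With-MK levels ran from 0 through 676 CPM at the median to 2688 CPM, while every without-MK cell stood at 0. The groups met only at 0, since 2 with-MK cells also had no read. It was detected in 18 of 20 with-MK cells (90.0%, exact Clopper-Pearson 95% interval 68.3 to 98.8%), against 0 of 24 without-MK cells, where the same interval reaches 14.2%. The sums were 16611 reads (exact Poisson 95% interval 16359 to 16866) and 0 reads, out of 15639246 and 12415448 library reads. C1qb was at least 3574-fold higher in with-MK cells by the exact binomial 95% interval of the ratio, and 4396-fold higher when a floor of 3 reads stood in for the without-MK sum. No without-MK reads were found even at a depth where the group limit is 0.242 CPM. Intervals and limits on reads describe counting error alone, and reads without molecular identifiers are not independent molecules. Intervals on shares of cells treat the cells of a group as independent draws. They describe the sampling of cells within that group and not variation between cultures or animals.

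C1qc, the C chain gene, showed the same split at a lower level and in fewer cells. With-MK levels ran from 0 through 50.6 CPM at the median to 1008 CPM, and C1qc stood at 0 in every without-MK cell. Reads were found in 15 of 20 with-MK cells (75%, 50.9 to 91.3%), again against 0 of 24 without-MK cells. In all, 3087 reads (2979 to 3198) stood against 0, at least 664-fold higher in with-MK cells by the same interval, and 817-fold with the floor of 3 reads. Among the 3271 genes read in at least 10 of the 44 cells, a filter that both chains pass through the with-MK cells alone, 34 (1.04%) had no read in without-MK cells.

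C3ar1 had the broadest detection of the members. It was read in 20 of 20 with-MK cells (from 83.2% up), from 23.3 through a median of 2864 to 10919 CPM. In without-MK cells it ran from 0 through a median of 0 to 35 CPM, with reads in 11 of 24 cells (45.8%, 25.6 to 67.2%). The groups overlapped narrowly, because 2 with-MK cells, 12 and 16, lay below without-MK cell 2. The sums were 48997 reads (48564 to 49433) for with-MK cells against 37 reads (26 to 51) for without-MK cells, or 3133 and 2.98 CPM, a 1051-fold ratio with an exact binomial interval of 763 to 1493. Without-MK cell 2 held 25 of the 37 reads, and none of the other 10 such cells had more than 2. Without cell 2 the ratio was 3055 (1749 to 5913), against 1.03 CPM in without-MK cells. With a limit of 5 reads, 19 of 20 with-MK cells and 1 of 24 without-MK cells had C3ar1. Without-MK cell 2 had 356 CPM of the macrophage list, the fifth highest of its group, and 4276 CPM of the osteoblast and fibroblast list, the lowest of its group, with 5 reads or more of 3 of the 18 macrophage genes.

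All 3 members were past the 2-fold rule in with-MK cells. So were 620 of the 3271 genes tested (19.0%), where the pooled level had to be at least 2-fold higher and the share of cells with a read not lower. Complete separation of the cells was rarer: for 16 genes (0.489%) the lowest with-MK cell was above the highest without-MK cell, and none of the 3 members is among them. In the deposited signal, means over with-MK cells were 16530 ± 15039 for C1qb, 12577 ± 17810 for C1qc and 1281 ± 1107 for C3ar1 (SD over 20 cells). The without-MK mean was 1.08 ± 2.97 for C3ar1 (SD over 24 cells) and 0 for both chains.

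**Figure D1:**
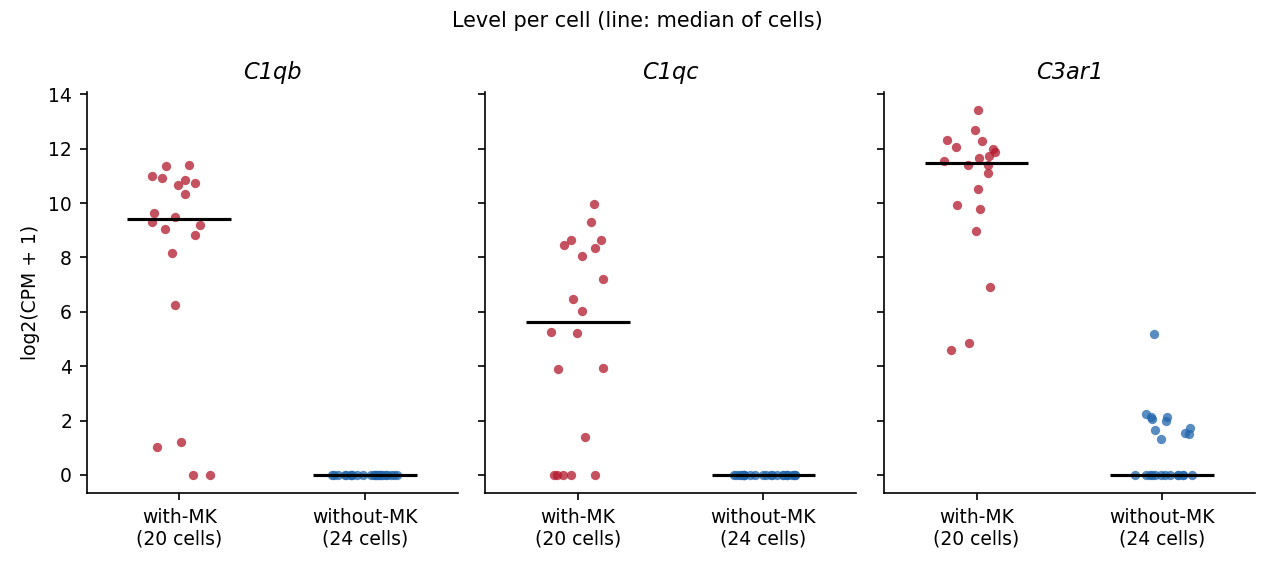
Level of each gene per cell as log2(CPM + 1), with-MK cells on the left and without-MK cells on the right of each panel. Each point is a cell and each line the median over the cells of a group. Both C1q chains stand at 0 in all 24 without-MK cells, while 2 with-MK cells have no C1qb read and 5 have no C1qc read. For C3ar1, without-MK cell 2 reaches 35 CPM, above the 2 lowest with-MK cells.

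Per kilobase of annotated exon (1088 bases for C1qb, 1931 for C1qc and 4305 for C3ar1), the pooled with-MK level was 976 CPM for C1qb, 728 for C3ar1 and 102 for C1qc. The B chain transcript was therefore 9.55-fold above the C chain transcript on this scale. C3ar1 was above C1qb in 10 of the 20 cells, so no order between these genes held from cell to cell. In the 12 cells with at least 5 reads of both chains, C1qb was higher than C1qc per length in all 12. The length comparison uses the union of annotated exons and would shift with the transcript form present.

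Among with-MK cells, the chains were on together in most cells. With 1 read as the limit, 14 cells had both chains, 4 had C1qb only, 1 had C1qc only and 1 had neither. Since C1qb was on in 18 and C1qc in 15 of the 20 cells, most cells had to have both. This count therefore cannot show agreement between the chains. With 5 reads, 12 cells had both, 4 had C1qb only, none had C1qc only and 4 had neither, so 16 of 20 cells were in the same state. At 10 CPM, 13 cells had both, 3 had C1qb only, 1 had C1qc only and 3 had neither. The C1qc-only cell was cell 16, which had a single C1qc read among 71585.

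The 4 cells with C1qb and little or no C1qc were cells 6, 11, 15 and 17. Cell 6 had 505 C1qb reads and 0 of C1qc. Cell 17 had 446 and 0, and cell 15 had 273 and 1. At the pooled ratio of C1qc to C1qb reads, such cells would have carried 93.8, 82.9 and 50.7 C1qc reads, against an upper counting limit of 3.69 for 0 reads and 5.57 for 1. Against the pooled ratio, the gap in these 3 cells was therefore beyond counting error, although losses before sequencing are outside that error. The pooled ratio does not describe single cells, since the ratio differed 38.1-fold among the 12 cells with at least 5 reads of both chains. At the ratio of cell 7, with 1432 C1qb and 32 C1qc reads, far fewer C1qc reads would be due. In cell 11, with 20 C1qb reads and 1 of C1qc, the pooled ratio gives 3.72 reads, and no difference was detectable at its depth. The 5 cells with no C1qc read had limits of 2.72 to 4.24 CPM.

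**Figure D2:**
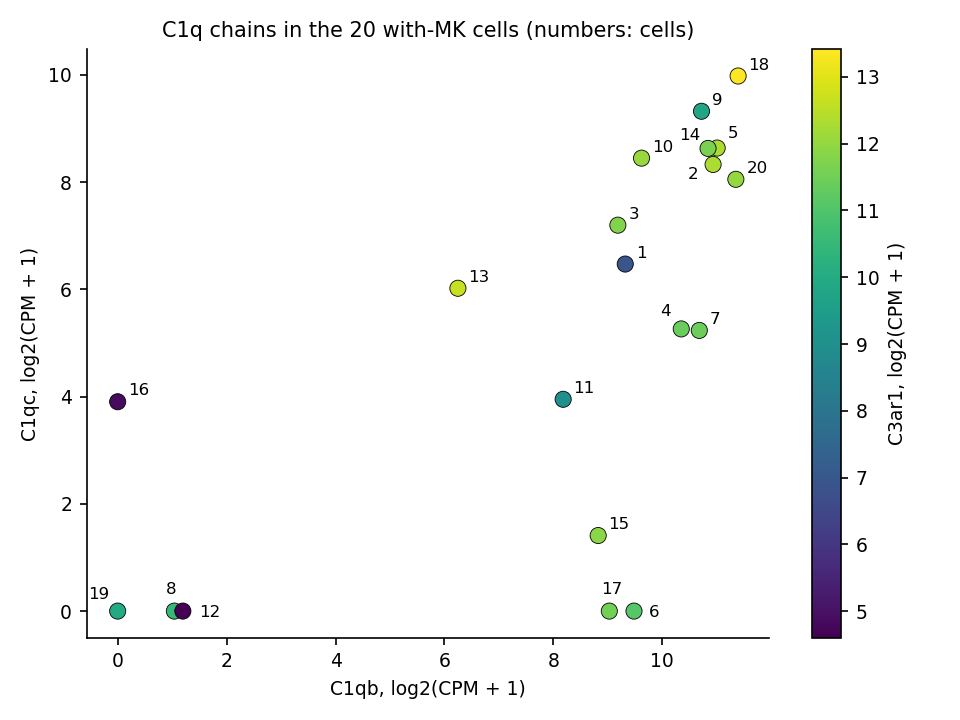
C1qb against C1qc in the 20 with-MK cells, both as log2(CPM + 1), with the cell number beside each point and the colour giving C3ar1 on the same scale. Cells 6, 15 and 17 lie along the lower edge, with 273 to 505 C1qb reads and at most 1 C1qc read. Cells 8, 12 and 19 lie near the origin, with at most 1 read of C1qb and none of C1qc.

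Levels of the chains went together only in part. Over the 20 cells, log2(CPM + 1) of C1qb and C1qc had a Pearson r of 0.66 and a Spearman rho of 0.79. Leaving out each cell in turn gave r from 0.60, without cell 19, to 0.73, without cell 6. In the 12 cells with at least 5 reads of both chains, r was 0.48 and rho 0.62. The cells share a culture label, a plate and a library preparation, so these are descriptions with no test. The per-length ratio of C1qb to C1qc in those 12 cells ran from 2.08 in cell 13 through a median of 8.71 to 79.4 in cell 7, a 38.1-fold range. Cell 13 had 61 and 52 reads of the chains. Cell 7 had 1432 and 32, and cell 4, next to it at 61.9, had 1116 and 32. Cell 18 had the highest CPM of all 3 members, at 2688 for C1qb, 1008 for C1qc and 10919 for C3ar1.

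A few cells carried much of the signal, most of all for C1qc. The 5 cells with the most reads held 57.9% of C1qb, 73.1% of C1qc and 51.6% of C3ar1 reads in with-MK cells. The top cell was cell 5 for C1qb (15.0% of reads), cell 9 for C1qc (20.7%) and cell 5 for C3ar1 (12.5%). The coefficient of variation of CPM over the 20 cells was 0.910 for C1qb, 1.42 for C1qc and 0.864 for C3ar1. By CPM, cells 18, 5 and 14 were among the 5 highest of both chains.

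**Figure D3:**
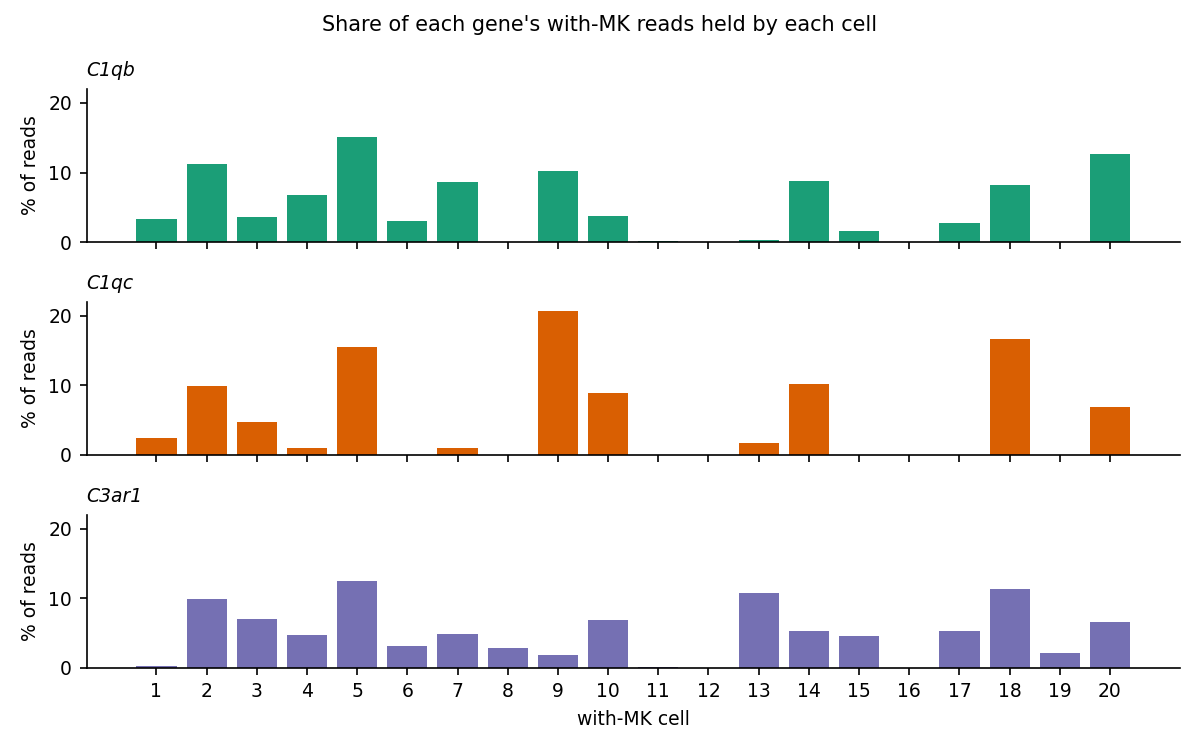
Percent of each gene's with-MK reads held by each of the 20 with-MK cells, in bars that start at 0. Cell 9 holds 20.7% of C1qc and 10.2% of C1qb but 1.78% of C3ar1 reads, and cell 13 holds 10.8% of C3ar1 but 0.367% of C1qb reads.

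C3ar1 was compared with each chain across the cells. Pearson r over the 20 cells was 0.64 with C1qb (rho 0.58) and 0.38 with C1qc (rho 0.54), and the difference between these was not tested. Without the 2 shallow cells the values were 0.53 and 0.41. Since C3ar1 was on in all 20 cells at limits of 1 read and of 10 CPM, its states could not be set against those of the chains there. With 5 reads, 16 cells had C3ar1 and C1qb, 3 had C3ar1 without C1qb and 1 had neither. For C1qc these counts were 12, 7 and 1. At this limit the only cell without C3ar1 was shallow cell 16, with 2 reads. Its 27.9 CPM lay above the 23.3 CPM of cell 12, which had 18 reads. These counts therefore follow almost wholly from those of the chains and the depth of cell 16. Cell 8 had 1385 C3ar1 reads with 1 read of C1qb, and cell 19 had 1062 C3ar1 reads with none of either chain. Cell 1 had 560 C1qb reads at 120.8 CPM of C3ar1, the third lowest C3ar1 level.

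The 4 with-MK cells with fewer than 5 reads of both chains, cells 8, 12, 16 and 19, were not alike in other readouts. Cell 8 had 5 reads or more of all 18 macrophage genes, 14083 reads of the lysozyme gene Lyz2 and 1807 CPM of Maf, a transcription factor of resident macrophages whose median over with-MK cells was 2085. Cell 12 had 14 of the 18 macrophage genes at 5 reads or more, with 11179 Lyz2 reads and 1145 Ptprc reads but 0 CPM of Maf and 18 C3ar1 reads. Cell 19 had 2094 reads of the signalling adaptor gene Tyrobp and 1689 of the CSF1 receptor gene Csf1r, with 1 Lyz2 read and 3.62 CPM of Maf. It had no Adgre1 read, and 10 of the 18 macrophage genes were at 5 reads or more. The listed resident macrophage genes summed to 6781 CPM in cell 8, against a group median of 5588. In cells 12, 16 and 19, which were alike in this, they summed to 168, 97.8 and 68.9 CPM. Cell 16 was shallow, with 7 of the 18 macrophage genes at 5 reads or more while Malat1, a nuclear RNA, reached 245233 CPM there and 6623 CPM at the median. Its listed inflammatory monocyte genes summed to 22980 CPM, the highest of its group, against a median of 3456 CPM. The limit of a count of 0 was 2.72 CPM in cell 19 and 41.9 CPM in cell 16.

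Thinning every cell to 310000 reads left out 2 cells of each group. C1qb was then read in 16 of 18 with-MK cells, against 0 of 22 without-MK cells, C1qc in 12 of 18 and 0 of 22, and C3ar1 in 18 of 18 and 7 of 22. Across with-MK cells, the correlation with log2 library reads was 0.28 for C1qb, 0.11 for C1qc and 0.46 for C3ar1, and −0.20, 0.03 and −0.15 without the 2 shallow cells. With the summed macrophage list it was 0.49, 0.14 and 0.47 over all 20 cells and 0.25, 0.13 and 0.13 over the 18 deeper ones. The rank correlation with that list was 0.18, 0.16 and 0.20 over all 20 cells. With Actb, an actin gene, Pearson r was 0.50, 0.14 and 0.58 over all 20 cells and 0.21, 0.18 and 0.25 over the 18 deeper ones.

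The rest of the complement system was sparsely listed. Of the 59 genes in 6 complement lists, 13 are in the table. None of 7 terminal pathway genes and none of 12 regulators of the cascade is among them. Of the 10 listed genes besides the members, 6 were past the 2-fold rule in the direction of with-MK cells, 1 was past it in the other direction, 2 were not past it, and C3 had reads in too few cells to be tested. The median log2 ratio of the 9 tested was 5.28, against −0.14 over all 3271 genes tested. C5ar1, C5ar2, Itgam and Cd93 had reads in only 2, 3, 2 and 7 without-MK cells. They passed the 10-cell filter through the with-MK cells, where they are high, so the filter partly sets the upward count and this median. With no filter, 7 of the 10 were past the rule upward and 1 downward. Over the 3271 genes that pass the filter, 19.0% were past it upward and 28% (915) downward. No such share was computed without the filter.

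Of 8 complement receptor genes, 5 are listed, and these 5, C3ar1 among them, were past the 2-fold rule upward. C5ar1, the receptor of the C5a peptide, stood at 1218 CPM over with-MK cells, against 2.58 CPM over without-MK cells, with reads in 19 of 20 and 2 of 24 cells. Of the 32 without-MK reads, 96.9% came from cell 17. Its relative C5ar2 stood at 203 and 5.24 CPM, in 11 and 3 cells, and without-MK cell 19 held 96.9% of 65 reads. Itgam and Itgb2 encode the chains of complement receptor 3, which binds a C3 fragment on opsonised particles. Itgam had 9959 reads over with-MK cells, against 2 over without-MK cells, 3953-fold by this count (95% counting interval 1094 to 32646). Itgb2 stood at 482 and 10.1 CPM, and cell 8 gave 80.8% of the without-MK reads. When the top cell of each group was dropped, with-MK and without-MK levels were 1014 and 0.0836 CPM for C5ar1, 154 and 0.170 CPM for C5ar2, and 432 and 2.03 CPM for Itgb2.

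C3, the central component that yields C3a, was scarce. In all, 4 of 20 with-MK cells and 3 of 24 without-MK cells had a read, too few for the 10-cell filter, with 520 and 94 reads. With-MK cell 1 held 60.8% of the first sum and without-MK cell 10 held 92.6% of the second. Without these cells the levels were 13.8 and 0.585 CPM, against 33.2 and 7.57 CPM with them.

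Genes of surface proteins that bind C1q or take up C1q-coated cells did not move one way. With-MK cells had 1371 CPM of Cd93 and without-MK cells 18.0 CPM, a 76.0-fold ratio (66.6 to 87.1), or 1202 and 4.93 CPM without the top cell of each group. Lrp1, an endocytic receptor, was 2.15-fold higher (1.97 to 2.34), at 124.8 and 58.2 CPM, but 1.79-fold when the reads of listed genes were the total, which is below the 2-fold rule. Calr, the chaperone calreticulin, stood at 590 and 347 CPM, a ratio of 1.70, and was not past the rule. The hyaluronan receptor gene Cd44 stood at 1137 and 2158 CPM, a ratio of 0.527, also not past it, and at 0.440 with listed reads as the total. Itgb1, the shared beta chain of many matrix-binding integrins, was lower, with 90.7 CPM over with-MK cells against 1174 CPM over without-MK cells, a ratio of 0.0772 (0.0731 to 0.0816).

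**Figure D4:**
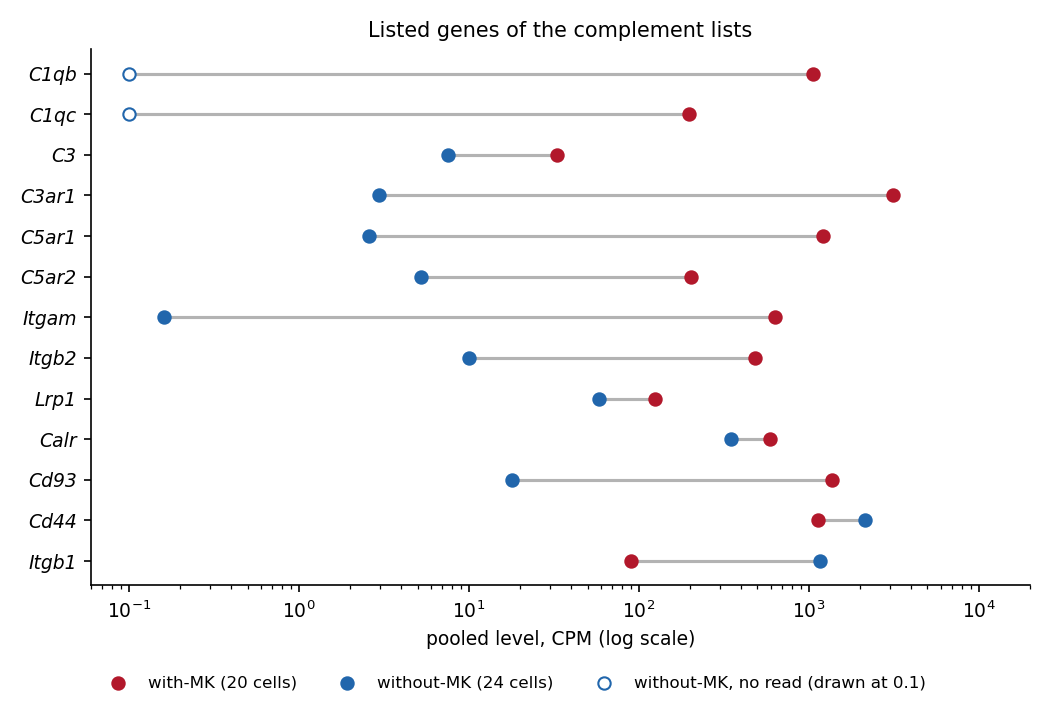
Pooled CPM, on a log axis, of the 13 listed genes of the complement lists in with-MK and without-MK cells. Open circles mark genes with no read in without-MK cells, drawn at 0.1 CPM. With-MK cells lie to the right for 11 genes, by 3953-fold for Itgam, and to the left for Cd44 and Itgb1.

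Within the with-MK cells, the complement receptors varied in their r with the C1q chains. Pearson r with C1qb was 0.54 for C5ar1, −0.03 for C5ar2, 0.34 for Itgam and −0.41 for Itgb2. With C1qc it was 0.34, 0.21, 0.18 and −0.20. With C3ar1 it was 0.47, −0.02, 0.14 and −0.34. Cd93 had 0.40 with C1qb and 0.41 with C1qc. Over the 2203 genes read in at least 10 of the 20 cells besides the member itself, the median r was 0.06 with C1qb, 0.03 with C1qc and 0.09 with C3ar1.

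By likeness across cells, C1qb was the second most like gene to C1qc among those 2203, at an r of 0.66, after Arhgap12 at 0.66. It came first without the 2 shallow cells, at 0.71. C1qc in turn was number 11 for C1qb, and number 3 without the shallow cells. C3ar1 went the other way for C1qb, from number 13 to number 25 without the shallow cells. The next for C1qc were Pdcd5 (0.61), Tlr13, an endosomal sensor of bacterial RNA (0.61), and the histone chaperone gene Nasp (0.59). For C1qb the 5 highest were the selenoprotein gene Sepw1 (0.76), Maf (0.69), the ETS factor gene Fli1 (0.69), the Fc receptor gene Fcgr3 (0.68) and the galectin gene Lgals1 (0.68). Without the shallow cells these were numbers 2, 4, 12, 7 and 10 of the 2203. The lowest were Capns1 (−0.63) and Myo1c (−0.63) for C1qb, and Bola3 (−0.60) and Brd2 (−0.58) for C1qc. With 2203 genes and 20 cells, high values at both ends are part of the spread shown in the histograms of r.

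The genes most like C3ar1 had r values up to 0.88. The endocytic adaptor gene Dab2 (0.88), Maf (0.85), the lysosomal protease gene Lgmn (0.83), the proteoglycan gene Sdc4 (0.81) and the small GTPase gene Rap2b (0.78) were the 5 highest. The rank correlation was lower for Dab2 (0.48) and Sdc4 (0.35) than for Maf (0.67), Lgmn (0.69) and Rap2b (0.68). Without the shallow cells, Maf came first at 0.85 and Dab2 second at 0.83. The lowest were Cdkal1 (−0.73) and Rae1 (−0.71). Maf was thus among the 5 genes most like both C1qb and C3ar1. For C3ar1, C1qb was number 29 and C1qc number 300.

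**Figure D5:**
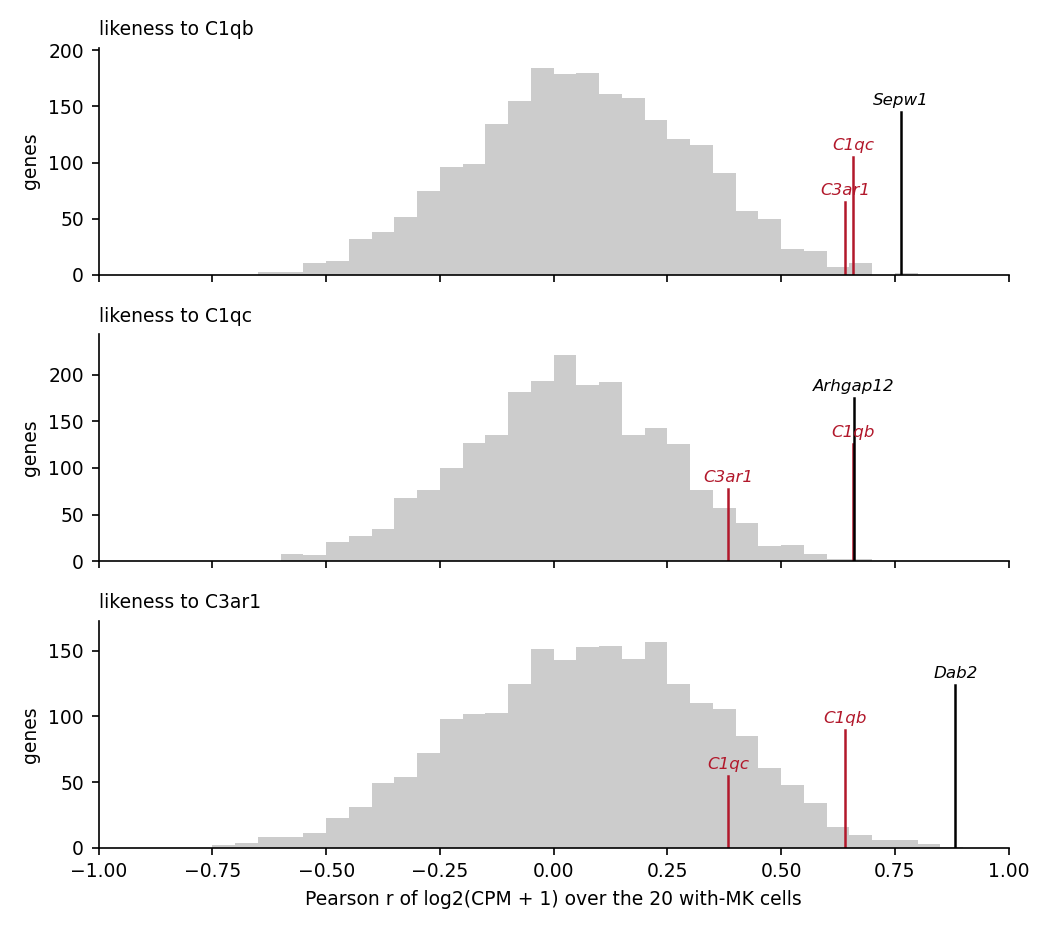
Number of genes, of 2203, by Pearson r of log2(CPM + 1) with each member over the 20 with-MK cells. Red lines mark the other members and black lines the most like gene. C1qc and C3ar1 both lie in the right tail for C1qb, at 0.66 and 0.64, and C1qc lies nearer the middle for C3ar1, at 0.38.

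Gene lists were read the same way, by the count of genes with an r above 0 and by the median r. All list values here and in the next paragraph include the 2 shallow cells and were not computed without them. How much they reflect depth or quality of the cells was not tested. All 6 resident macrophage genes tested had an r above 0 with each member, with medians of 0.32 for C1qb, 0.25 for C1qc and 0.50 for C3ar1. Over the 2203 genes, r was above 0 for 59.6%, 55.6% and 61.8%. Of 5 inflammatory monocyte and chemokine genes, 2, 2 and 1 had an r above 0, with medians of −0.04, −0.08 and −0.26. Ccr1 was the lowest with each member, at −0.36, −0.34 and −0.42. The highest was Ccl3 with C1qb (0.30) and C1qc (0.14), and Ccl4 with C3ar1 (0.48). Of 18 macrophage genes, 17, 15 and 15 were above 0, with medians of 0.36, 0.13 and 0.30. The exception for C1qb was Csf1r, at −0.10. Of 17 lysosomal genes, 12, 11 and 11 were above 0, with medians of 0.27, 0.10 and 0.31, led by Lamp2 for C1qb (0.65), the protease gene Ctsl for C1qc (0.49) and Lgmn for C3ar1.

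Of 7 genes for uptake of dying cells, 5, 5 and 6 had an r above 0 with C1qb, C1qc and C3ar1, with medians of 0.26, 0.15 and 0.40. The scavenger receptor gene Msr1 led for both chains (0.57 and 0.37) and Stab1, a receptor of resident macrophages, for C3ar1 (0.60). Of 6 antigen presentation genes, 4, 0 and 2 were above 0, with medians of 0.17, −0.11 and −0.08. Of 6 interferon-stimulated genes, 5, 3 and 6 were above 0, with medians of 0.25, −0.01 and 0.25, and Oas1a was the highest for C1qb (0.43) and C3ar1 (0.37). Of the 3 osteoclast genes listed, 0, 1 and 2 were above 0, with medians of −0.21, −0.09 and 0.19. Of 4 osteoblast and fibroblast genes, 1, 3 and 0 were, with medians of −0.18, 0.05 and −0.31. Many of these values are small for 20 cells and serve as a description of these cells only.

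Markers of other cell types were few. Pf4, the 1 listed gene of the 12-gene megakaryocyte list, is also made by resident macrophages. It ran from 0 through a median of 183 to 8749 CPM in with-MK cells and reached at most 4.55 CPM in without-MK cells. Its r was 0.09 with C1qb and 0.05 with C1qc. The neutrophil genes S100a8 and S100a9 together had a with-MK median of 5.01 CPM and a highest cell of 1181 CPM, against a without-MK median of 0 and a highest cell of 37.7 CPM. No listed gene was found for the lymphoid, dendritic, endothelial, and erythroid and mast cell lists, so such cells could not be looked for.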

How the data were processed

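RNA of 44 sorted single cells was sequenced (150 b paired-end reads), per the labels. The authors deposited a normalized signal per gene and cell, shaped like RPKM: reads × 1e+09, divided by the cell's library reads and by a whole number that each gene keeps in all cells. This form was worked out from the values. Genome build mm10 and Seurat are named in the submitters' processing notes, while no source used here names the aligner, the counter or the annotation. Library reads were read off the commonest value in a cell, and the smallest whole number per gene then turned every value above 0 into whole reads within 0.0001. For the 3 members this number was the same with any of the 44 cells left out. The recovery was tested on data simulated in this same form, so that test cannot show whether the form holds for the deposited values. Reads of a gene are recovered only up to a factor common to all cells. Comparisons between genes, such as those per kilobase, depend on that factor. CPM is not a deposited unit. No cell pair held identical values, no cell was removed or clustered, and no doublet caller was run.

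The design assumed that reads might not be recoverable. Since they were, sums of reads are the main values, and no count model was fitted. Groups follow the treatment label. Detection means at least 1 read, and correlations are of log2(CPM + 1). Actb served only as a covariate. Named genes were the members, Ptprc, Adgre1, every listed gene of 6 complement lists, and the 5 highest and 2 lowest genes by Pearson r with each member, passing over predicted genes; Itga2b was not analysed here. Genes cited for single cells (such as Lyz2, Csf1r, Tyrobp and Malat1) or as extremes of a list were chosen after their values were seen. The members and lists were chosen with earlier results of these data known. Alternatives were other scalings, detection limits, pseudocounts, thinning and left-out cells. Python 3.11.15, numpy 2.4.6, pandas 2.3.3, scipy 1.17.1 and matplotlib 3.10.9 were used.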

Additional observations from a re-analysis of the deposited data

How the results depend on the processing

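No paired analysis was possible because no test was made: the groups are 1 sample each, and cell numbers do not pair cells. All log2 ratios kept their sign under every alternative run. For C1qb the main log2 ratio was 12.10. It was 12.19 with median-ratio scaling, 11.84 with the reads of listed genes as the total, 11.98 when the top cell of each group was dropped, 11.25 on thinned cells, 12.02 without without-MK cell 2 and 12.25 for the 3 with-MK cells within the depth range of the without-MK cells. For C1qc the main value was 9.67, and in the same order the values were 9.76, 9.41, 9.43, 8.83, 9.59 and 10.19. For both chains the ratio is against the floor of 3 reads, so fewer library reads lower it by construction. For C3ar1 the main value was 10.04. It moved past its counting interval to 11.50 without the top cells, to 11.58 without without-MK cell 2 and to 10.75 for the with-MK cells of matching depth. Median-ratio scaling moved the median of all tested genes by 0.09 and listed reads moved it by −0.26, and the members moved by as much as all genes did.

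With limits of 5 reads and of 10 CPM, C3ar1 was detected in 4.17% of without-MK cells under either, against 45.8% with 1 read. Pearson r of C1qb and C1qc was 0.60 on the log2 deposited signal, against 0.66, and 0.62 to 0.71 under the other scalings, pseudocounts, depth limit and thinning. Leaving out single cells gave 0.60 to 0.73. Apart from the members, 2 complement genes were lower when listed reads were the total and 2 without the top cells, against 1, the added gene being Cd44 each time. The other 51 of 71 alternative values stayed within the spread of the main value. Leaving out without-MK cell 2 and matching depth were chosen after seeing the data. The mean of deposited values gives no ratio for the chains, which are at 0 in without-MK cells. The depth of a cell limits its values: 3 reads correspond to 2.47 to 43.4 CPM in with-MK cells and to 4.20 to 11.1 CPM in without-MK cells.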

Other observations

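The whole number by which the deposited values were divided was 60 for C1qb, 15 for C1qc and 2372 for C3ar1. Across 3478 genes it had a Spearman correlation of −0.02 with annotated exon length, and across 3588 genes one of 0.35 with the reads summed over the 44 cells. With the reads of single cells it had correlations of 0.21 to 0.32 in with-MK cells and of 0.11 to 0.20 in without-MK cells. In the deposited signal the with-MK mean of C1qc, 12577, lies above that of C3ar1, 1281, while per kilobase of exon the recovered reads give 102 CPM for C1qc and 728 CPM for C3ar1. The order of genes within a cell in the deposited values is therefore set in part by this number. Comparisons of cells within a gene do not depend on it.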
